A study of Homo sapiens with 4 samples.

Results

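A set of 10 genes of the Notch pathway was followed in the human cell line MDA-MB-231, which is established from a triple-negative breast tumour. They were chosen by symbol: the receptor genes NOTCH1, NOTCH2 and NOTCH3, the ligand genes JAG1, JAG2 and DLL1, the nuclear genes RBPJ and MAML1, and the target genes HES1 and HEY1. All 10 were found among the 20804 genes of the deposited table. The 4 libraries came from wild-type cells (WT, n = 2) and from cells with the genotype miR-3662-KO (KO, n = 2). No label gives a drug, a time, the way the knockout was made or whether the KO line is 1 clone. CRISPR interference and activation are named in the title of the series, and sorting by microRNA activity in its design text, so what KO stands for is uncertain.

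Notch receptors are transmembrane proteins that are activated by ligands of the Jagged and Delta-like families on a neighbouring cell. Ligand pulling exposes the receptor to a metalloprotease and then to γ-secretase, which frees the intracellular domain. That domain enters the nucleus, binds the DNA-binding protein RBPJ and recruits a Mastermind coactivator such as MAML1. RBPJ without the intracellular domain holds corepressors at the same genes. HES1 and HEY1 encode repressors of the basic helix-loop-helix class and are among the best-known direct targets. In breast cancer the pathway is known for its links to stem-like cells and to triple-negative disease.

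The microRNA, the seed matches in RBPJ and NOTCH2 and the start of HES1 are shown here because KO is defined by the microRNA, RBPJ rose, and HES1 is the target gene with the highest mean level over the 4 libraries. The mature microRNA has 24 bases and lies at chr6:134979355-134979378 on the minus strand (RefSeq, GRCh38.p14). Capitals mark the seed, bases 2 to 8.
hsa-miR-3662: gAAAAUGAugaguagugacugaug

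A match to that seed reads TCATTTT on the transcript strand. The 3′ UTR of the annotated transcript with the longest coding sequence held 3 matches in RBPJ (of 4121 bases), 1 in NOTCH2 (of 3753 bases) and 1 in HEY1 (of 1175 bases). The other 7 genes held none. Capitals mark the match in the RBPJ and NOTCH2 windows of 27 bases below (GRCh38, GENCODE 29, last exon; plus strand for RBPJ, minus strand for NOTCH2).
RBPJ, chr4:26432379-26432405: acttatgtttTCATTTTtttctctgcc
RBPJ, chr4:26433765-26433791: gttttgtgaaTCATTTTcagtatgtaa
RBPJ, chr4:26434673-26434699: gtttatatgcTCATTTTtagcttattt
NOTCH2, chr1:119912535-119912561: gttttaagcaTCATTTTcttatgtgag

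Of 10879 tested genes with an annotated 3′ UTR, 29.2% held at least 1 match, against 3 of the 7 tested Notch genes (RBPJ, NOTCH2 and HEY1). With 7 genes nothing particular to them is read from this count. NOTCH3, JAG2 and DLL1, which were not tested, held none. At least 3 matches, as in RBPJ, were found in 5.03% of the 10879 genes and in 14.5% of the 1178 genes with a 3′ UTR of 3000 to 5000 bases. Among the 547 genes with 3 or more matches 13% were higher in KO, and among the 7704 genes without a match 17.1% were. The median log2 fold change was 0.152 with 3 or more matches and 0.059 with none. With 3′ UTRs of 3000 to 5000 bases 12.3% of 171 genes with 3 or more matches and 13.2% of 424 without one were higher, with medians of 0.208 and 0.014. These groups were not matched for transcript GC content, with which log2 fold changes correlated at -0.119 over tested genes. A seed match in RBPJ is a description of its sequence and was not tested as a cause of its level.

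The window from 250 bases before to 50 bases after the start of HES1 lies at chr3:194135898-194136197 on the plus strand (RefSeq, GRCh38.p14). Capitals mark TGGGAA, the core of the RBPJ motif.
HES1: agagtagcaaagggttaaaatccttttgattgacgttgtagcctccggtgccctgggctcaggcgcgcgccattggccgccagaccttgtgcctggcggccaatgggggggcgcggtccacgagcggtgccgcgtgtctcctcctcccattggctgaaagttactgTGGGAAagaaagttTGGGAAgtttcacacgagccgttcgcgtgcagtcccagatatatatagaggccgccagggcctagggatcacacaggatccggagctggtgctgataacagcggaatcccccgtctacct

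The 2 matches in HES1 begin 84 and 70 bases before the start, on the same strand. Searched on both strands, TGGGAA was found at least once in 24% of 35116 RefSeq windows of this length and at least 2 times in 3.8%. Windows were found for 8 of the 10 genes, and 2 of these 8, HES1 and RBPJ, held the motif. Counted by window, as the 24% is, it was 2 of 12. RBPJ has 5 annotated starts, 1 of them with 2 matches, and which start these cells use is not known from the table. The longer motif CGTGGGAA, found in 0.826% of all windows, was absent from the HES1 window. It had 1 match at the RBPJ start that holds the 2 matches.

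The values are FPKM, fragments scaled by transcript length and library size, which can be compared between genes as levels per length. They summed to between 504102 and 544650 per library. The sources used here do not give read depth, so the precision of low values is unknown. Of 5 mesenchymal markers of the line 4 reached 1 FPKM, with VIM at 1120 to 1321, whereas SPARC was at 0.17 to 0.55, and ESR1 and CDH1 were at or below 0.03 in every library. Of the other triple-negative receptor genes ERBB2 was at 8.59 and 10.45 FPKM in WT and at 11.44 and 8.55 in KO, and PGR was not listed. Leukocyte and endothelial markers reached 1 FPKM for 0 of 4 listed genes each, with summed levels of 0.1 to 0.3 and 0.18 to 0.67 FPKM, and PTPRC and CD3E were listed at 0 throughout. Of the fibroblast list, 1 of 4 listed genes, COL1A1, reached 1 FPKM, and the summed level was 1.15 and 1.56 in WT and 0.39 and 0.35 in KO. Most of that sum was COL1A1, at 1.11 and 1.45 FPKM in WT and at 0.36 and 0.27 in KO. Its log2 fold change was -0.79 (limma, adjusted p 0.00915). The luminal list summed to 17.1 and 23 FPKM in WT and 20.2 and 29.1 in KO, mostly KRT19, whose groups overlapped. EPCAM of the same list fell from 1.08 and 1.15 FPKM to 0.34 and 0.05, with a log2 fold change of -0.83 (adjusted p 0.0103). The part of the fibroblast and luminal markers in the results below was not tested.

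NOTCH2 was the receptor of these cells by level, MAML1 and RBPJ were well expressed, and the ligands were scarce. In WT the order of mean levels was NOTCH2 (34.6 FPKM), MAML1 (25.1), HES1 (14.4), RBPJ (12.0), NOTCH1 (5.07), JAG1 (1.82), HEY1 (1.00), JAG2 (0.605), NOTCH3 (0.14) and DLL1 (0.01). HES1 and RBPJ overlapped between the WT libraries, and the other neighbours in that order did not. In KO the order was NOTCH2 (31.6), RBPJ (23.2), MAML1 (20.6), HES1 (11.2), JAG1 (2.81), NOTCH1 (2.20), HEY1 (1.33), JAG2 (0.47), NOTCH3 (0.115) and DLL1 (0.01). There RBPJ overlapped with MAML1 and JAG1 with NOTCH1.

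**Figure D1:**
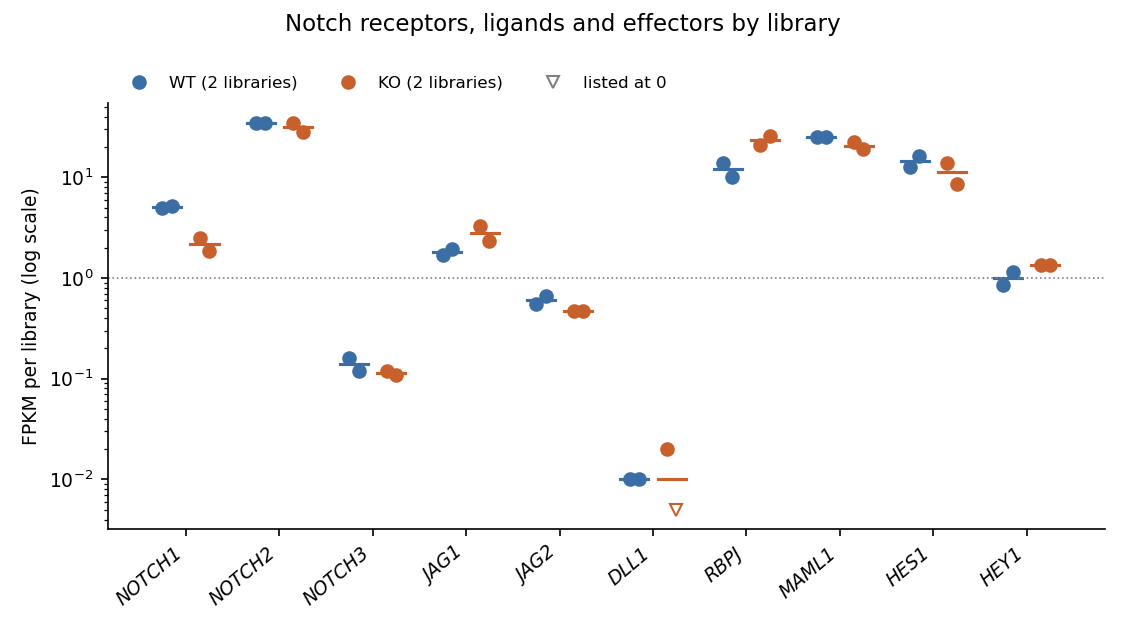
FPKM of the 10 genes (log scale) in each of the 2 WT and 2 KO libraries, with points for libraries, bars for group means and a dotted line at 1 FPKM. NOTCH1 sits lower and RBPJ higher in both KO libraries, NOTCH2 lies between 28.2 and 34.9 FPKM, and DLL1 is at or below 0.02.

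The comparison of KO with WT used limma on log2(FPKM + 1), with p adjusted over 11786 tested genes. Of the 10 Notch genes 7 had at least 1 FPKM in at least 2 libraries and were tested. NOTCH1 fell, RBPJ rose, and the other 5 did not pass an adjusted p under 0.05. That is 2 of 7, near the 27.0% of all tested genes that passed (16.2% higher and 10.8% lower), so nothing particular to the Notch genes is read from the count. Scaled by the median of ratios, the libraries gave 1557 genes higher (13.2%) and 1613 lower (13.7%) in place of 1906 and 1278, 26.9% in all, and NOTCH1 and RBPJ kept their calls. The median log2 fold change was -0.136 over the 7 genes and 0.074 over all tested genes. The groups did not overlap, with both KO values on the same side of both WT values, in 5 of the 7, and in 68.0% of all tested genes. In bulk RNA, fewer cells that express a gene and less RNA per cell cannot be told apart.

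Among the receptors, NOTCH1 stood at 4.95 and 5.18 FPKM in WT and at 2.52 and 1.87 in KO. Both KO values lay below both WT values, and the mean fell from 5.07 ± 0.163 to 2.20 ± 0.460 FPKM (SD, n = 2), 2.31-fold. The log2 fold change was -0.93 ± 0.16 (SE), with an adjusted p of 0.00742. Without the second KO library it was -0.78 (adjusted p 0.0526), and with no filter on low values the call was lost as well (0.0634).

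NOTCH2 was at 34.6 FPKM in each WT library and at 34.9 and 28.2 in KO. The groups overlapped, since the first KO library stood above WT and the second below. Its log2 fold change was -0.14 with a 95% interval from -0.46 to 0.19 (adjusted p 0.492). Copies of the 5′ part of NOTCH2 elsewhere on chromosome 1, the NOTCH2NL genes, share reads with it, and the sources used here do not say how such reads were split. NOTCH3 was at 0.16 and 0.12 FPKM in WT and at 0.12 and 0.11 in KO, below the filter and not tested. NOTCH4, the remaining human receptor gene, stood between 0.09 and 0.24 FPKM in all libraries.

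The make-up of the receptor pool was described by shares, with no test. NOTCH1 held 12.4% and 12.9% of the summed receptor FPKM in WT and 6.70% and 6.14% in KO. NOTCH2 held 86.9% and 86.3% in WT and 92.7% in each KO library. The ratio of NOTCH2 to NOTCH1 was 7 and 6.68 in WT and 13.9 and 15.1 in KO. These shares do not depend on how the libraries are scaled.

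JAG1, the main ligand gene here, was at 1.68 and 1.95 FPKM in WT and at 3.26 and 2.35 in KO. Both KO values were above WT, but the KO libraries also differed from each other. The log2 fold change was 0.43 with a 95% interval from 0.03 to 0.82, an unadjusted p of 0.0375 and an adjusted p of 0.0994, so it did not pass. JAG2 was at 0.55 and 0.66 FPKM in WT and at 0.47 in each KO library. DLL1 was at 0.01 in each WT library, 0.02 in the first KO library and listed at 0 in the second. The other Delta-like genes, DLL3 and DLL4, reached at most 0.07 FPKM. All ligands together summed to 2.32 and 2.71 FPKM in WT and to 3.79 and 2.86 in KO, of which JAG1 made 72.4% and 72.0% in WT and 86.0% and 82.2% in KO.

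**Figure D2:**
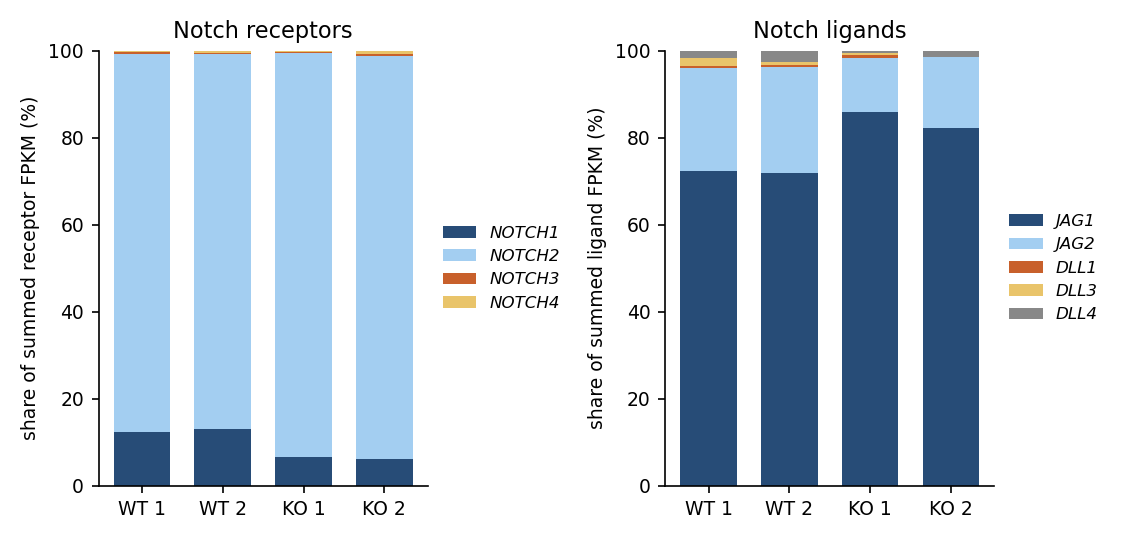
Share of each gene in the summed FPKM of the Notch receptors (left) and ligands (right), in percent, with 1 bar per library. NOTCH1 takes 12.4% and 12.9% of the receptor sum in WT and 6.70% and 6.14% in KO, and JAG1 takes 72.4% and 72.0% of the ligand sum in WT and 86.0% and 82.2% in KO.

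RBPJ, the DNA-binding factor on which all Notch receptors converge, was at 13.96 and 10.08 FPKM in WT and at 20.83 and 25.65 in KO. Both KO libraries stood above both WT libraries, and the mean rose from 12.0 ± 2.74 to 23.2 ± 3.41 FPKM (SD, n = 2), 1.93-fold. The log2 fold change was 0.91 ± 0.18 (SE), with an adjusted p of 0.0123. The call was lost when the second WT library was left out (0.69, adjusted p 0.0572), when the second KO library was (0.76, adjusted p 0.0752) and when low values were not filtered (adjusted p 0.0859). The WT libraries differed by 0.433 on the log2 scale for RBPJ, against a median of 0.147 over all tested genes. RBPJ has processed pseudogenes, and the counting of reads shared with them is not described in the sources used here.

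MAML1, the Mastermind coactivator that binds the complex of RBPJ and the receptor domain, was at 25.1 and 25.0 FPKM in WT and at 22.3 and 19.0 in KO. Both KO values were lower, but the log2 fold change of -0.27 (95% interval from -0.59 to 0.04) did not pass (adjusted p 0.165). The ratio of RBPJ to MAML1 was 0.556 and 0.403 in WT and 0.934 and 1.35 in KO.

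The target genes did not pass. HES1 was at 12.5 and 16.2 FPKM in WT and at 13.8 and 8.61 in KO. The groups overlapped, and the KO libraries differed by 0.625 on the log2 scale, the widest gap between replicates among the 10 genes, against a median of 0.154 over all tested genes. Its log2 fold change was -0.35 with a 95% interval from -0.88 to 0.17 (adjusted p 0.271), so neither a fall of more than 1.5-fold nor an unchanged level is outside the interval. The value was -0.67 without the first KO library and -0.041 without the second. HEY1 was at 0.86 and 1.14 FPKM in WT and at 1.33 in each KO library, a log2 fold change of 0.22 (95% interval from -0.11 to 0.56, adjusted p 0.281).

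Many genes near NOTCH1 on the chromosome were also lower in KO. NOTCH1 lies on chromosome 9 from 136494433 to 136546048 (GRCh38.p14), near the end of the long arm. Of 85 other tested genes within 5 Mb, 37 were lower in KO (43.5%, against 10.8% of all tested genes) and 6 were higher, with a median log2 fold change of -0.392. NOTCH1 stood low among them, as 8 of the 85 were as low or lower. By a fixed rule, the 3 genes whose centred profiles over the 4 libraries were nearest to that of NOTCH1 were VAV2, CCDC190 and CAD, at Euclidean distances of 0.0281, 0.0613 and 0.0623 (log2). CCDC190 on chromosome 1 and CAD on chromosome 2 lie outside this stretch and had log2 fold changes of -0.99 and -0.90. VAV2, a guanine nucleotide exchange factor gene, lies 2.73 Mb from NOTCH1 and had a log2 fold change of -0.91. NRARP, a feedback inhibitor induced by Notch signalling that also lies in this stretch, was at 0.95 and 1.33 FPKM in WT and at 0.8 and 0.65 in KO, below the filter.

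RBPJ showed the same kind of setting in the other direction. It lies on chromosome 4 from 26105449 to 26435131, and of 11 other tested genes within 5 Mb 5 were higher in KO (45.5%, against 16.2% of all tested genes) and none was lower. Their median log2 fold change was 0.467, and 4 of the 11 were as high as RBPJ or higher. The part of these neighbourhoods in the levels of NOTCH1 and RBPJ was not tested. Around MAML1, which did not pass itself (adjusted p 0.165), 17 of 59 neighbours within 5 Mb were higher and 4 lower, and 6 of the 59 had a log2 fold change as low as that of MAML1 or lower. Around JAG1 none of 13 neighbours passed (limma), and 5 of 42 were higher and 3 lower around HES1. For DLL1, not tested itself, 7 of 15 neighbours within 5 Mb were lower (46.7%) and 1 higher, with a median of -0.406. For NOTCH3, also not tested, 33 of 191 were lower and 23 higher. For NOTCH2 5 of 21 were higher and 1 lower, for HEY1 2 of 14 higher and 0 lower, and for JAG2 3 of 42 in each direction.

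**Figure D3:**
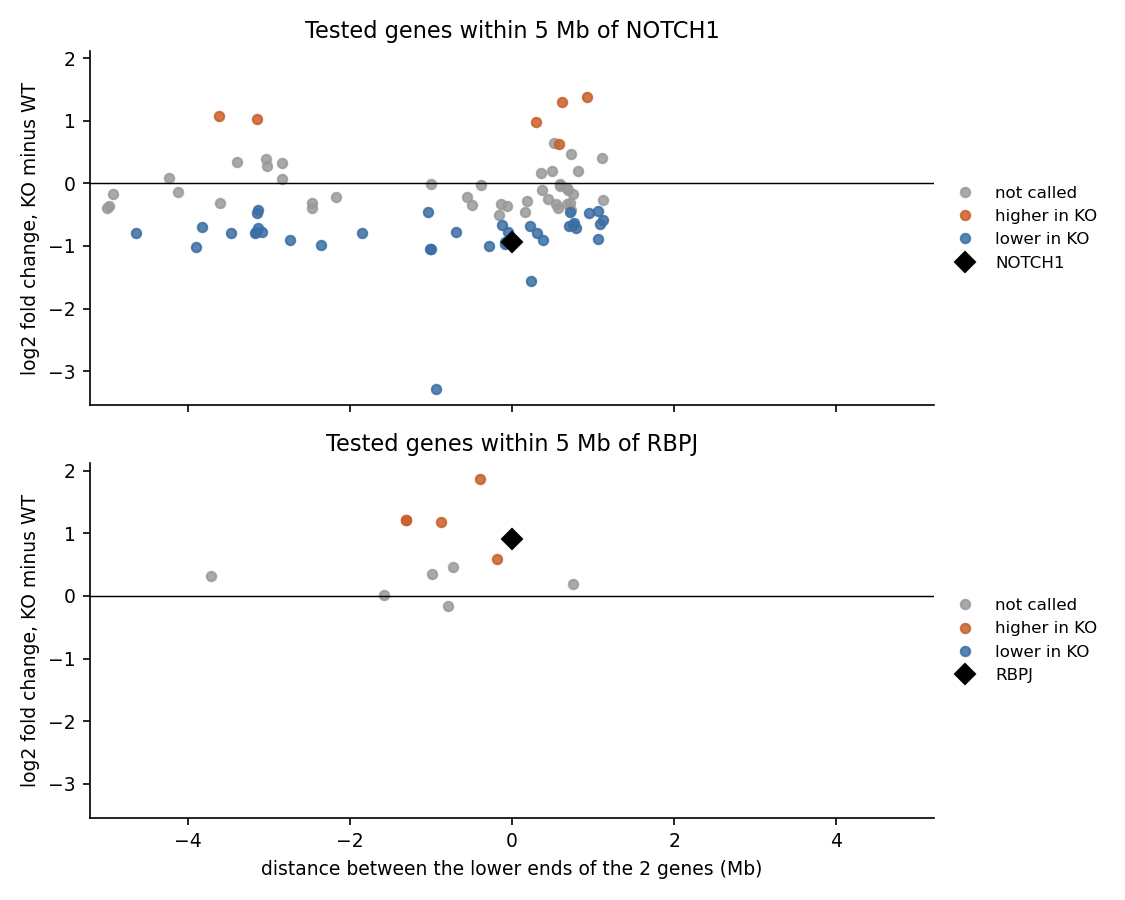
Log2 fold change (KO minus WT) of tested genes within 5 Mb of NOTCH1 (top) and RBPJ (bottom), by distance in Mb, with 1 point per gene coloured by its call and a black diamond for the Notch gene. Around NOTCH1 37 of 85 neighbours were lower in KO, and around RBPJ 5 of 11 were higher.

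The rest of the pathway was read from a list of 74 genes that holds the 10 and 64 others, of which 63 were in the table and 51 tested. Of these 51, 6 rose and 9 fell (29.4%, against 27.0% of all tested genes), with a median log2 fold change of 0.073. The count thus lies near the background. After a correction for GC content 28 of the 58 tested genes of the whole list passed in place of 17, while 35.6% of all genes passed in place of 27.0%.

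Genes that modify the receptor moved in both directions. LFNG, Lunatic fringe, adds a sugar to the extracellular repeats of Notch that favours Delta-like over Jagged ligands. It was at 4.23 and 7.14 FPKM in WT and at 31.65 and 15.56 in KO. All KO values were above WT although each group was widely spread. The log2 fold change of 1.83 ± 0.33 (SE, adjusted p 0.00808) was the largest in size among the tested genes of the list. LFNG passed in every alternative that was run except the one without a filter on low values (adjusted p 0.0911). MFNG, another fringe gene, was at 0.11 and 0.18 FPKM in WT and at 0.8 and 0.59 in KO, below the filter. FURIN, the protease that cuts the receptor precursor, fell from 52.6 ± 6.22 to 31.2 ± 3.22 FPKM (log2 -0.74, adjusted p 0.00978), and without the second WT library its call was lost (0.061).

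All 8 tested genes of receptor cleavage had positive values, with a median of 0.347, against 6720 of all 11786 tested genes and a median of 0.074. Median-of-ratios scaling shifted the median over all tested genes by -0.061, which is larger in size than the 0.016 of ADAM17. The signs were not counted again after scaling. Of the 8, 2 passed (25.0%), near the 27.0% of all tested genes. PSENEN, a small subunit of γ-secretase, rose from 29.1 ± 5.60 to 55.05 ± 2.89 FPKM (0.91, adjusted p 0.00663). APH1B, another subunit, rose from 1.22 ± 0.325 to 2.24 ± 0.248 FPKM (0.55, adjusted p 0.0427). It did not pass after scaling (0.0573), with a pseudocount of 0.1 (0.0515), without the filter (0.129), or without the first WT library (0.178), the first KO library (0.165) or the second KO library (0.104). PSEN2, a catalytic subunit, had a value of 0.11, and the metalloproteases ADAM10 and ADAM17 of 0.34 and 0.02, none of which passed.

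In the nucleus the corepressors that RBPJ recruits and the histone acetyltransferases changed unevenly. SPEN, which links RBPJ to corepressors, fell by 0.61 and TLE1, a Groucho-type corepressor that HES proteins bind, by 0.48 on the log2 scale. CIR1, a corepressor that binds RBPJ, rose by 0.87. HDAC1 (-0.05) and NCOR1 (-0.17) did not pass.

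Of the 9 tested coactivator genes RBPJ and KAT2B rose and CREBBP and KAT2A fell (44.4%, against 27.0% of all tested genes). With 9 genes nothing particular to the coactivators is read from this count. KAT2B, an acetyltransferase, rose from 4.99 ± 0.339 to 8.44 ± 0.099 FPKM (0.66), its paralogue KAT2A fell by 0.44, and CREBBP, the acetyltransferase CBP, fell by 0.67. The Mastermind genes MAML2 (0.47) and MAML3 (-0.58) had opposite signs and did not pass. Calls of TLE1 and KAT2A were lost whichever of the 4 libraries was left out. When 1 library was left out, SPEN kept its call only without the second WT library and KAT2B only without the first WT library. CIR1 lost its call without the second WT library and without the second KO library. CREBBP lost its call without the first WT library and without the second KO library.

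In endocytosis and turnover EPN1, an epsin that ligand cells need to pull on Notch, fell from 126 ± 7.08 to 83.4 ± 1.42 FPKM (-0.59). Without the second WT library the log2 fold change of EPN1 was -0.53, and its call was lost. NUMBL, of the Numb family of Notch inhibitors, fell by 0.60 and AAK1, a kinase of clathrin adaptors, by 0.59. DTX3L, a ubiquitin ligase of the Deltex family, rose from 1.28 ± 0.0707 to 3.98 ± 0.382 FPKM (1.13, adjusted p 0.00319). The call of NUMBL was lost whichever library was left out, and AAK1 kept its call only without the first KO library. NUMB itself had a log2 fold change of 0.06 and did not pass.

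No tested target gene passed in limma (0 of 5, with 1 at an unadjusted p under 0.05), against 27.0% of all tested genes that passed and 4865 of 11786 at an unadjusted p under 0.05. With 5 genes nothing particular to the targets is read from this count. HES4 was at 2.34 and 3.28 FPKM in WT and at 4.2 and 3.84 in KO (0.41, unadjusted p 0.0454, adjusted p 0.113). HES6 (0.07) and HEYL (0.08) lay near the median of all genes. HES2, HES5, HES7, HEY2, NRARP and DTX1 were below the filter.

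**Figure D4:**
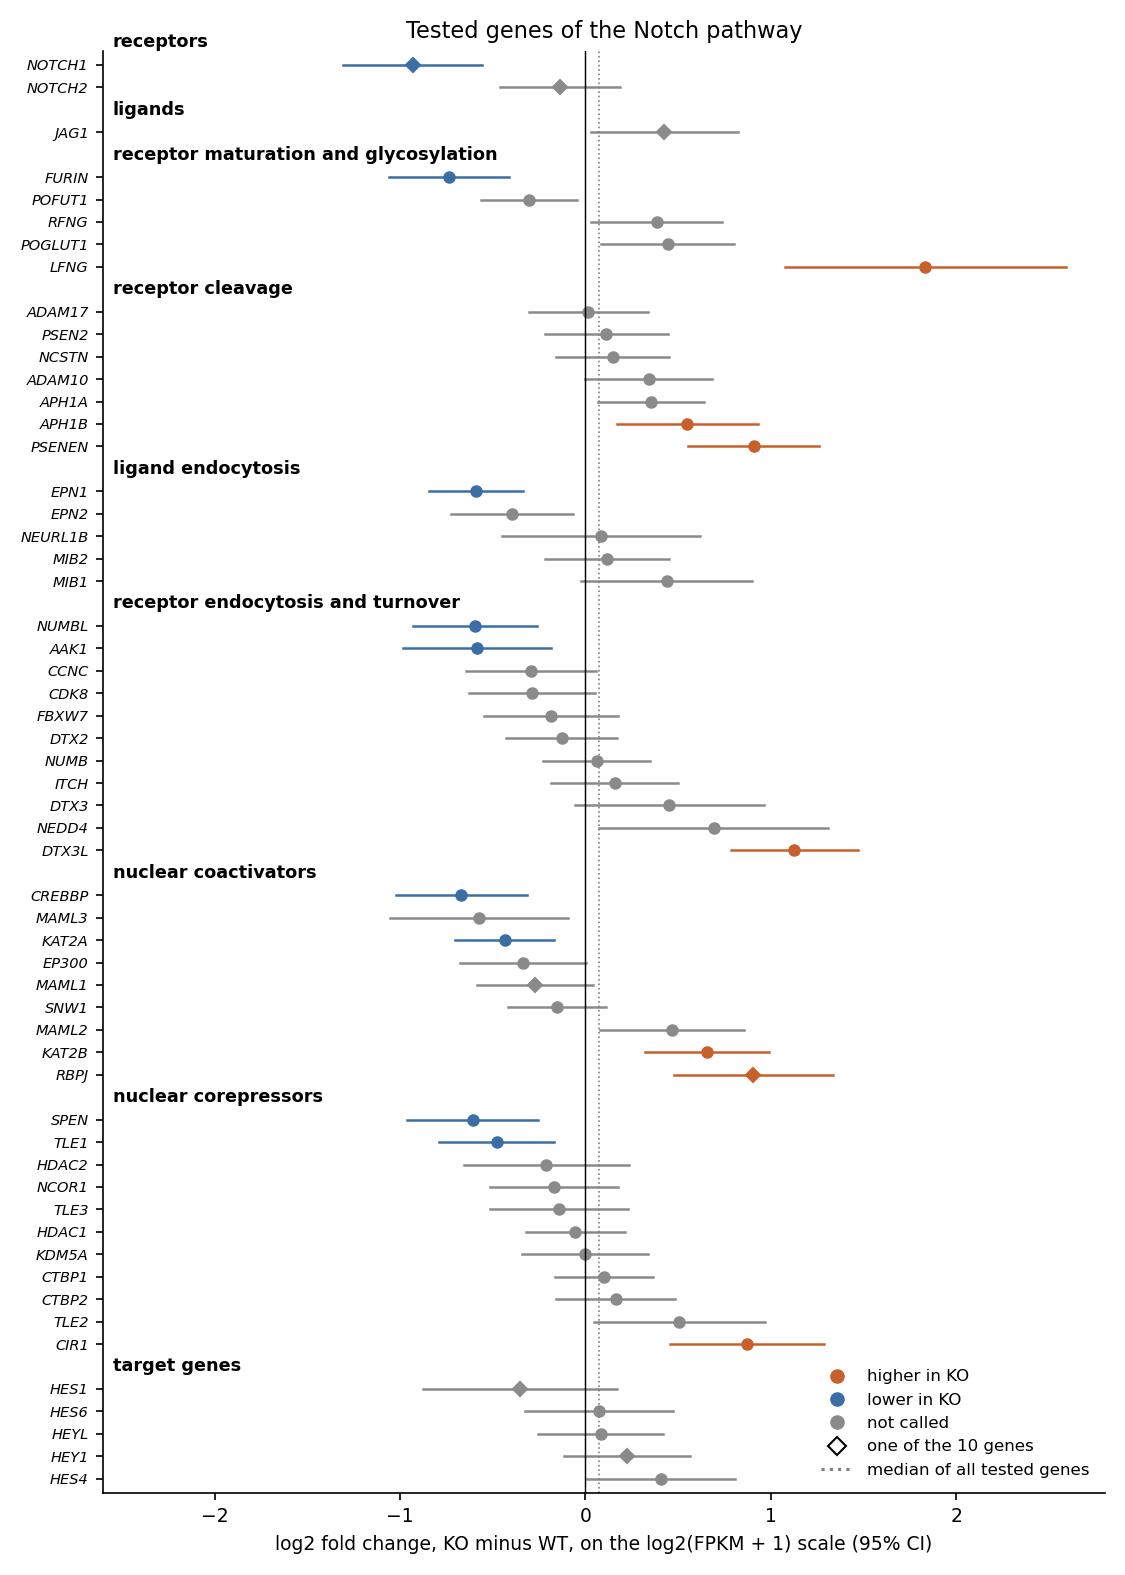
Log2 fold change (KO minus WT) with 95% interval for 56 of the 58 tested genes of the Notch pathway list, grouped by step, with diamonds for the 7 tested of the 10 Notch genes and colours for genes that passed. Of the genes drawn, LFNG lies farthest to the right at 1.83 and NOTCH1 farthest to the left at -0.93, and all 5 target genes have intervals in grey.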

How the data were processed

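RNA sequencing of 4 libraries (2 WT, 2 KO) was deposited by the authors as FPKM, with 1 value for each gene in each library (per the file headers). Libraries were made from Trizol-extracted RNA with an Illumina TruSeq kit, per the labels' protocols. HISAT, StringTie, Cufflinks and GATK and the build hg38 are named in the submitters' processing notes, without roles. Filters and versions are not stated there. Depth is unknown: low values carry 2 decimals, too coarse to recover reads. Labels do not say whether libraries are separate cultures, so p-values measure the spread between these libraries, which may be technical.

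Values were analysed as log2(FPKM + 1), so fold changes of low genes are understated, for genes that reached 1 FPKM in 2 or more libraries. The test was limma 3.58.1 (R 4.3.3) with a mean-variance trend, Benjamini-Hochberg adjustment over all 11786 tested genes and a threshold of 0.05. The fit was run on simulated data with independent noise and few changed genes, so the rate of false calls in these data is not known from it. Tables were made with Python 3.11.15 and pandas 2.3.3. Alternatives were a pseudocount of 0.1, no filter, a filter at 5 FPKM, median-of-ratios scaling, no trend, a replicate block, a lowess correction for transcript GC content (GENCODE 29) and leaving out each library.

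The genes, lists, neighbour windows and tests were chosen with earlier results of these data known. Named are the 10 genes, up to 3 rising and 3 falling genes per pathway step with the smallest p, and the 3 profiles nearest to the tested Notch gene with the smallest p. Genes named with values that did not pass, and MFNG, NRARP and NOTCH4, were added after their values were seen. A few pathway genes, though tested and counted, are not reported here by name. Marker lists covered the line itself, luminal cells, leukocytes, endothelium and fibroblasts.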

Additional observations from a re-analysis of the deposited data

How the results depend on the processing

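Over all genes 3184 passed in limma, against 525 without the filter on low values, where 19833 genes were tested, and 1402 to 1902 when 1 library was left out. Of the 10 Notch genes 2 passed, against 0 without the filter (2 at an unadjusted p under 0.05), 1 with at least 5 FPKM in 2 libraries, where NOTCH1 was not tested, and 0 to 2 when 1 library was left out. The 0 arose without the second KO library (3 at an unadjusted p under 0.05). Of the 74 pathway genes 17 passed, against 2 without the filter, 28 after GC correction (the cause was not tested) and 6 to 12 when 1 library was left out. NOTCH2 changed sign without the second KO library (0.01). Pseudocount, scaling and trend left the calls of NOTCH1 and RBPJ as they were. The sample titles number replicates 1 and 2 in both groups without saying that a number marks a shared culture or day. In the column names only the WT libraries carry these numbers. What the names of the KO columns stand for, and whether both come from the same isolate, is not given. Deviations of same-numbered libraries correlated at -0.177 across genes. With the replicate number as a block 2864 genes, 2 Notch genes and 17 pathway genes passed, and KAT2A (adjusted p 0.0555) and TLE1 (0.0635) did not. With the pairing crossed, added after seeing the data, 4170 genes passed. The unknown depth limits what can be said of NOTCH3, JAG2, DLL1 and other genes below 1 FPKM.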

Other observations

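Related genes outside the lists were looked at after their values were seen. MAMLD1, which encodes a protein with a Mastermind-like domain, was at 9.97 and 10.2 FPKM in WT and at 20.2 and 15.9 in KO. It rose by 0.77 ± 0.16 (log2, SE; limma, adjusted p 0.0121), whereas MAML1 did not pass. NOTCH2NL, listed apart from NOTCH2, was at 3.61 and 4.43 FPKM in WT and at 4.05 and 3.41 in KO and did not pass (log2 fold change -0.08, adjusted p 0.725).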
